A study of Homo sapiens with 15 samples.

Results

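The expression of 46 epithelial-mesenchymal and matrix genes was followed in A549 cells, a human lung adenocarcinoma line, on 15 dual-color arrays that cover the whole genome. The genes were chosen by name: epithelial junction and keratin genes, mesenchymal genes and their transcription factors, transforming growth factor (TGF)-beta pathway genes, matrix genes and integrins. A probe carrying the gene name was found for 45 of them, with 76 probes among the 41000 non-control probes of the array, which hold 30484 gene names. EPCAM had no probe under that name; the array lists its older symbol TACSTD1, which is counted among the related genes and had a mean ratio of 0.13 (adjusted p = 0.0117, limma). For 43 genes at least 1 probe passed the brightness filter, among 23018 genes tested; MMP2 and ITGB6 were too dim. Each array compared cells overexpressing 1 miRNA after transfection of a precursor oligo at 20 nM (Cy5) with cells in which the same miRNA was knocked down by an antisense oligo at 20 nM (Cy3), both harvested 24 h after transfection. Each of 5 miRNAs had 3 arrays: miR-766, miR-629*, miR-574-3p, miR-565 and miR-181d. No untransfected or control-oligo cells and no dye swap were among the arrays. Dye and treatment therefore cannot be told apart in any ratio. A dye effect that is equal on every array drops out of differences between miRNAs.

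In epithelial cells, cadherins and catenins form adherens junctions, claudins and occludin form tight junctions, and keratins form the intermediate filaments that desmosomes anchor. During epithelial-mesenchymal transition, these genes are lowered by transcription factors of the SNAI, ZEB and TWIST families, vimentin, fibronectin and N-cadherin rise, and TGF-beta signalling through SMAD proteins is one inducer. A549 cells are a common model of this transition because they keep E-cadherin and simple keratins but also hold much vimentin.

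A miRNA recognises its target transcripts mainly through its seed, bases 2 to 8. Mature sequences from RefSeq (GRCh38.p14) were found for 3 of the 5 miRNAs and are shown with the seed in capitals, since these are the oligos that were raised and knocked down. No entry was found for miR-565 or for the 3p arm of miR-766. The miR-181d gene product lies on chromosome 19 from 13874910 to 13874932 (plus strand), that of miR-574-3p on chromosome 4 from 38868092 to 38868113 (plus strand), and that of miR-629*, the 3p arm, on chromosome 15 from 70079387 to 70079408 (minus strand).
miR-181d: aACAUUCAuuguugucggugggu
miR-574-3p: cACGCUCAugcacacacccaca
miR-629*: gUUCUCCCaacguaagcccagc
The 3 seeds differ from each other. Searched on the transcript strand that the 60-base probes carry, the seed complement of miR-181d (TGAATGT) was in 0.893% of all probes, that of miR-574-3p (TGAGCGT) in 0.132% and that of miR-629* (GGGAGAA) in 0.654%. Of the 76 probes of these genes, only the dimmer probe of TGFBR2, a TGF-beta receptor, held one of them. Its match to miR-629*, in capitals, lay in a probe placed on chromosome 3 between 30690717 and 30704913 (NCBI36), of which 30 bases are given.
TGFBR2: tgtaatgcagtGGGAGAAgtaaaagattat
The log2 ratio of this probe in miR-629* was -0.11 (adjusted p = 0.369, limma). The probes cover only a small stretch of each transcript, so the search says nothing of the rest.

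Between 68.1% and 75.5% of probes were well above background in the overexpressing channel and between 68.8% and 73.0% in the knocked-down channel. Replicate 1 of miR-565 stood apart: its ratios had an SD of 0.94 on the log2 scale, against 0.29 to 0.53 on the other 14 arrays. The difference lay in its overexpressing channel, whose median correlation with that channel of the other arrays was 0.965, against 0.991 to 0.996 elsewhere, whereas its knocked-down channel was at 0.995. This array is kept in the fit, and results that rest on it are also given without it. The arrays lay on 4 slides, and miR-766 alone occupied slide 4, where slide and miRNA cannot be told apart. Of the simple epithelial markers, 6 of 6 with a probe were well above background in both channels on all 15 arrays. Of 6 fibroblast markers, COL1A2, COL3A1, LUM and PDGFRB were well above background on none, and only COL1A1, itself among the 46 genes, was so on all. Of 4 endothelial markers, PECAM1 and CDH5 were so on none and KDR on 1 array in each channel, while VWF was so on 15 arrays in overexpressing and 9 in knocked-down cells. Of the leukocyte markers reported here, PTPRC was so on none and CD3E and CD14 on all; their part in the results was not tested.

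KRT7 and KRT8 were lower in overexpressing than in knocked-down cells for each of the 5 miRNAs, on 15 of 15 arrays, whereas most of the other genes passed the test for 1 miRNA or for none. With limma and Benjamini-Hochberg adjustment over all 31356 probes tested, at adjusted p under 0.05 and with the brightest probe for each gene, 2 of the 43 genes were lower and 6 higher in miR-181d, where 2.68% of all genes tested were lower and 3.68% higher. In miR-565, 3 were lower and 2 higher (4.64% and 9.69% of all genes). For miR-574-3p, 2 were lower and 2 higher (2.65% and 2.82%). The numbers for miR-629* were 3 lower and 2 higher (4.51% and 6.22%). In miR-766, KRT7 and KRT8 were lower (0.743% of all genes) and none was higher (1.56%). The median log2 ratio of the 43 genes lay between -0.05 (miR-574-3p) and 0.07 (miR-565), beside 0.01 to 0.04 for all genes, so the list as a whole was centred near 0. The study's methods asked for a ratio under 0.5, a signal of at least 20 in knocked-down cells and a p no higher than 0.001. No gene met these limits with the unadjusted p of the limma fit, nor their mirror image, a ratio over 2 with such a signal in overexpressing cells.

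**Figure D1:**
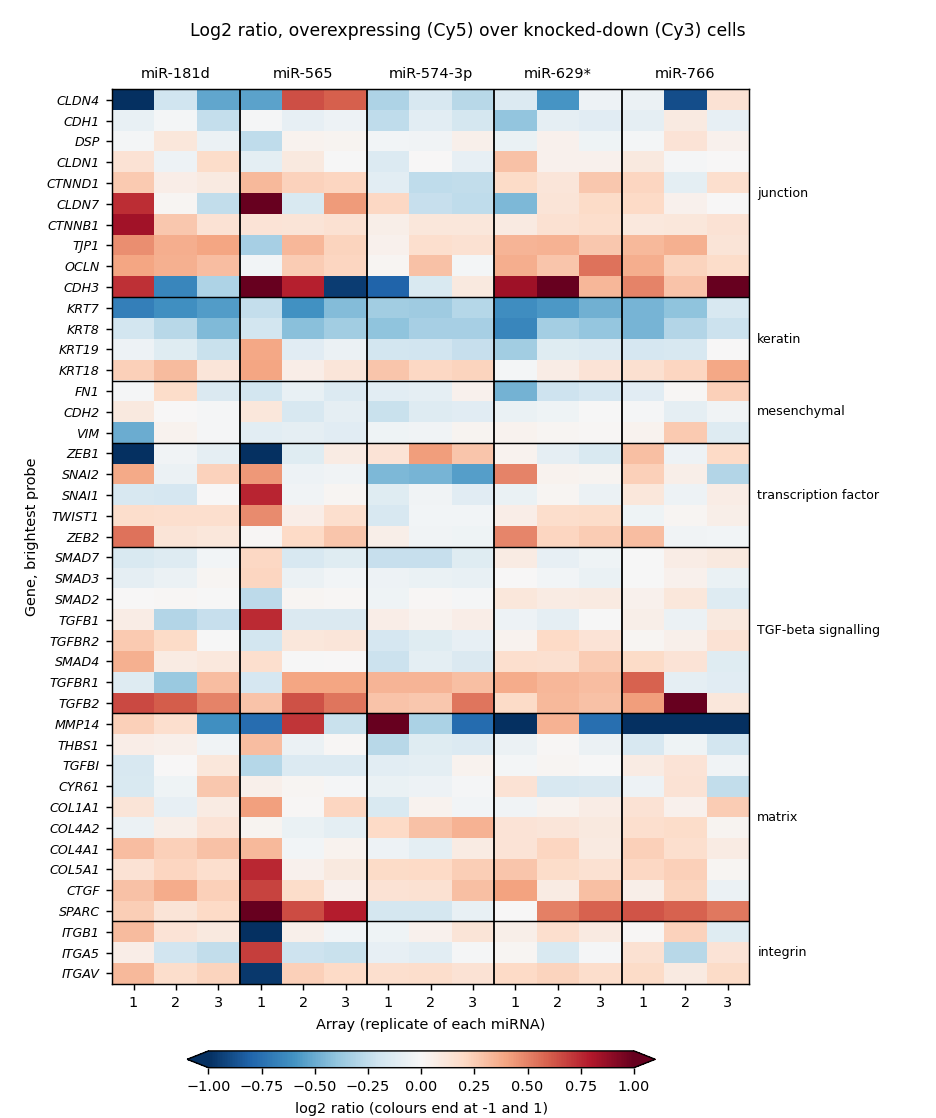
Log2 ratio of overexpressing over knocked-down cells for the brightest probe of each of the 43 genes tested (rows, by role) on each of the 15 arrays (columns, 3 replicates of each miRNA), with colours ending at -1 and 1. KRT7 and KRT8 are blue on all 15 arrays, TGFB2, CTNNB1 and COL5A1 are red on all 15, and replicate 1 of miR-565 departs from its neighbours at ITGB1, ITGAV, ZEB1 and SPARC. A second COL5A1 probe, not shown, had a mean of 0.02 over the 5 miRNAs (adjusted p = 0.788, limma) and was below 0 on 8 arrays.

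KRT7 encodes a type II keratin of simple epithelium and had the lowest mean ratio of the 43 genes except the dim MMP14. In miR-181d, its signals were 11503, 12365 and 13543 in overexpressing cells and 18462, 18880 and 19902 in knocked-down cells. The channels did not overlap, and the log2 ratio was -0.62 (SE 0.066, n = 3, adjusted p = 0.000905, limma), a 1.53-fold lower level. The ratio was -0.56 in miR-629* (adjusted p = 0.000912), -0.42 in miR-565 (adjusted p = 0.00364), -0.34 in miR-766 (adjusted p = 0.0205) and -0.33 in miR-574-3p (adjusted p = 0.0128). In miR-766 and miR-565, the channels overlapped between arrays, but within each array the overexpressing cells were lower. By slide, the mean ratio of KRT7 was -0.52, -0.43, -0.49 and -0.34, so the direction was the same on each. With the slide as a random block, however, KRT7 passed the test only in miR-181d and KRT8 in no miRNA, while the mean of KRT7 over the 5 miRNAs still passed. KRT7 passed in 28 of 28 alternatives in miR-181d, 27 in miR-629*, 26 in miR-565, 24 in miR-766 and 23 in miR-574-3p. In miR-574-3p, it did not pass with any 1 array of that miRNA left out. In miR-766, it did not pass without replicate 1 or without replicate 2 of that miRNA.

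KRT8, the type II partner of keratin 18, followed with a smaller difference. In miR-629*, its signals were 49846, 55117 and 46286 in overexpressing and 78180, 69731 and 60543 in knocked-down cells, without overlap, and the log2 ratio was -0.46 (SE 0.067, n = 3, adjusted p = 0.00265, limma). In the other 4 miRNAs, the ratio lay between -0.35 and -0.30, with adjusted p from 0.00927 to 0.0279. KRT8 passed in 27 of 28 alternatives in miR-629*, 24 in miR-565, 23 in miR-574-3p, 21 in miR-181d and 19 in miR-766. With normexp background correction it passed in miR-629* only. In miR-181d, miR-574-3p and miR-766, it did not pass with any 1 array of that miRNA left out. A second, dimmer KRT8 probe was also lower, with a mean over the 5 miRNAs of -0.29 (adjusted p = 0.00119) and a lower value on 14 of 15 arrays; replicate 1 of miR-565 was the exception, at 0.40. As type II keratins share sequence, the KRT7 probe and this second KRT8 probe were compared: 39 of 56 aligned bases were identical (69.6%). In their most alike 30 bases, 24 were the same, shown in capitals. The KRT7 probe lies on chromosome 12 between 50917564 and 50918733, and the KRT8 probe between 51580728 and 51581262 (NCBI36).
KRT7: GAGAATGAgTTTGTGgTgctgAAGAAGGAT
KRT8: GAGAATGAaTTTGTGcTcaccAAGAAGGAT
The brightest KRT8 probe lies elsewhere, between 51577293 and 51577352, and matched the KRT7 probe at 18 of 59 bases (30.5%). Cross-hybridisation between the 2 genes was not tested.

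KRT18, the type I partner of KRT8, gave opposite results with different probes. The brightest probe was higher in overexpressing cells, with a mean over the 5 miRNAs of 0.19 (SE 0.028, adjusted p = 0.000147, limma) and a higher value on 14 of 15 arrays. It passed the test for miR-574-3p (0.23, SE 0.062, adjusted p = 0.0440) and miR-181d (0.22, SE 0.062, adjusted p = 0.0480). The second probe, nearly as bright, was lower on 15 of 15 arrays, with a mean of -0.25 (adjusted p = 3.2e-05), and the next was lower on 12 of 15, with a mean of -0.10 (adjusted p = 0.0191). No direction is therefore given for KRT18. These 3 probes lie on chromosome 12 (NCBI36) between 51632383 and 51632821, between 51630879 and 51630938, and between 51631844 and 51631903, in this order of brightness, and do not overlap. The first 30 bases of each are given, as it is the probe and not the gene name that sets the sign.
KRT18, brightest: gaggacttcattcttggtgatgccttggac
KRT18, second: tatcacacgactgcagctggagacagagat
KRT18, next: gctcacagagctgagacatacagtccagtc
The dimmest probe, with a signal of 29.7, is listed in the opposite order of coordinates to the other 3, that is on the other strand, and was higher on 15 of 15 arrays (mean 0.54, adjusted p = 0.00145). KRT18 also has near-identical copies in the genome, which these probes may share.

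**Figure D2:**
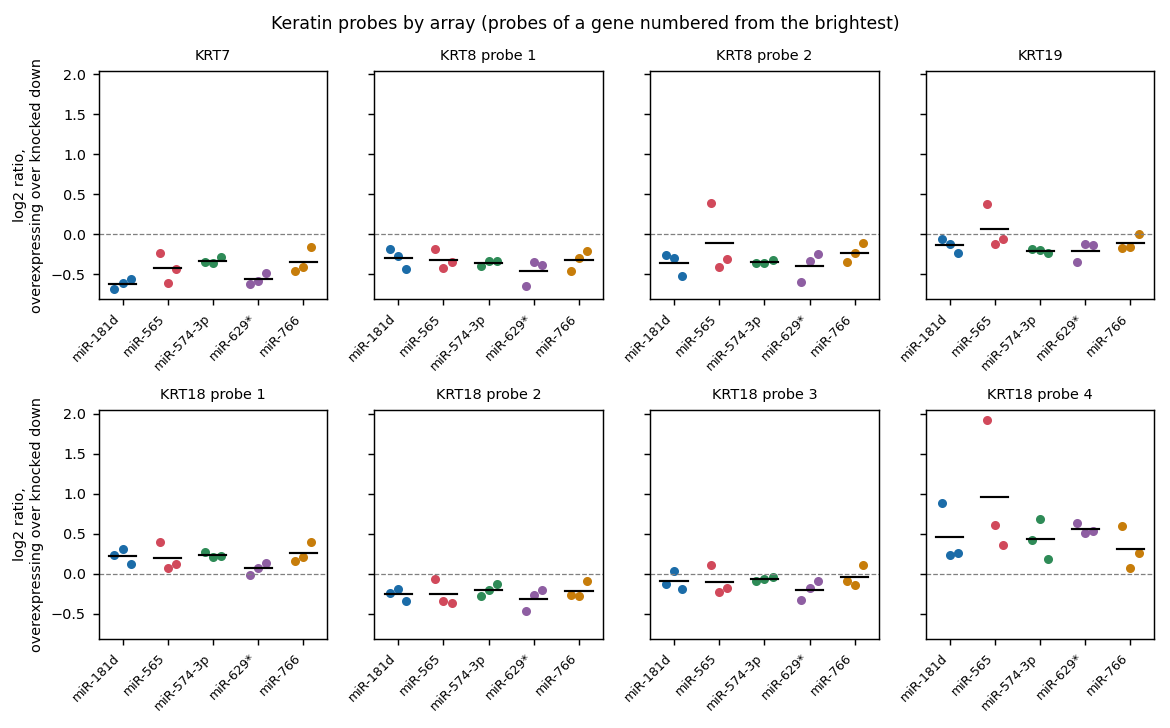
Log2 ratio of overexpressing over knocked-down cells for each keratin probe, with 1 point for each array and a line at the mean of the 3 arrays of a miRNA. KRT7 and the brightest KRT8 probe lie below 0 on all 15 arrays, whereas the 4 KRT18 probes lie on both sides of 0.

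Other epithelial genes moved less. E-cadherin (CDH1), the main adhesion molecule of epithelium, passed the test for no single miRNA; its ratios lay from -0.40 to 0.09 over the arrays and were below 0 on 14 of 15, and the mean over the 5 miRNAs was -0.11 (SE 0.029, adjusted p = 0.00780, limma). KRT19, another simple keratin, had the same mean of -0.11 (SE 0.037, adjusted p = 0.0242) and lower values on 13 of 15 arrays. Desmoplakin (DSP), which anchors keratins at desmosomes, had a mean of -0.01 (SE 0.026, adjusted p = 0.880) and a range of -0.25 to 0.13.

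Of the 10 junction genes tested, 3 were higher in overexpressing cells in miR-181d, 2 in miR-629* and 1 in miR-565, beside 3.68%, 6.22% and 9.69% of all genes, and none was lower in any miRNA. Occludin (OCLN), a membrane protein of the tight junction, had signals of 130, 130 and 147 in cells overexpressing miR-181d and 98.4, 102 and 119 in cells in which it was knocked down. These did not overlap, and the log2 ratio was 0.35 (SE 0.086, n = 3, adjusted p = 0.0301, limma). It did not pass with any 1 of these 3 arrays left out. In miR-629*, the ratio was 0.39 (SE 0.086, adjusted p = 0.0149), with replicates at 0.36, 0.28 and 0.54. There, OCLN did not pass without replicate 1 or without replicate 3 of miR-629*. Both OCLN probes were higher over the 5 miRNAs, at 0.25 (adjusted p = 0.000276) and 0.18 (adjusted p = 0.00695). TJP1 encodes the scaffold protein ZO-1 beneath the tight junction. Its log2 ratio was 0.41 in miR-181d (SE 0.093, adjusted p = 0.0240), with replicates at 0.47, 0.36 and 0.39, and 0.32 in miR-629* (SE 0.093, adjusted p = 0.0451). The second TJP1 probe was near 0 over the 5 miRNAs (0.05, adjusted p = 0.177), so the 2 probes disagreed in size. In miR-181d and in miR-629*, TJP1 did not pass with any 1 array of that miRNA left out.

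Catenins link cadherins to the cytoskeleton. Beta-catenin (CTNNB1) had a log2 ratio of 0.42 in miR-181d (SE 0.091, n = 3, adjusted p = 0.0191, limma), but its replicates were 0.84, 0.27 and 0.15. One array thus carried much of this value. The other miRNAs had means of 0.10 to 0.14, and all of their 12 arrays were above 0. The second CTNNB1 probe had a mean of -0.02 (adjusted p = 0.699) over the 5 miRNAs. CTNND1, encoding p120-catenin, which holds E-cadherin at the membrane, had a log2 ratio of 0.26 in miR-565 (SE 0.071, adjusted p = 0.0352), with replicates at 0.32, 0.23 and 0.22. Without replicate 1 it was 0.22 and no longer passed (adjusted p = 0.0602). Its 3 dimmer probes had means over the 5 miRNAs between -0.09 and 0.01, and none of these passed the test. Of the claudins and P-cadherin (CDH3), none passed the test in any miRNA, and CLDN4 and CDH3 had a median signal under 10 in both channels.

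Of the 3 mesenchymal genes, 1 passed the test, in 1 miRNA (4.51% of all genes were lower there). Vimentin (VIM), the intermediate filament of mesenchymal cells, had median signals of 74098 in overexpressing and 75829 in knocked-down cells and a mean log2 ratio of -0.04 (SE 0.037, adjusted p = 0.411, limma). Its second probe was lower, at -0.07 (adjusted p = 0.0199), on 12 of 15 arrays. Fibronectin (FN1), a matrix glycoprotein that rises in the transition, was lower in miR-629* at -0.28 (SE 0.077, n = 3, adjusted p = 0.0342). Its signals there were 4838, 5209 and 3825 in overexpressing and 6731, 6006 and 4306 in knocked-down cells. The channels overlapped between arrays, and replicate 1 had the largest difference, at -0.48, against -0.21 and -0.17. The next FN1 probe was at -0.26 in miR-629* (adjusted p = 0.0970, limma) and the dimmest at -0.02 (adjusted p = 0.936). The call held in 19 of 28 alternatives. It was lost with the mean of the probes and with any 1 array of miR-629* left out. N-cadherin (CDH2) had a mean of -0.05 (SE 0.025, adjusted p = 0.114), and without replicate 1 of miR-565 it was lower (-0.07, adjusted p = 0.00317).

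None of the 5 transcription factors passed the test in a single miRNA. SNAI2, encoding the repressor Slug, was closest: in miR-574-3p its ratios were -0.45, -0.47 and -0.55 (log2 ratio -0.49, adjusted p = 0.0553, limma), while its means in the other miRNAs lay between 0.00 and 0.19. ZEB1, a repressor of E-cadherin, ranged from -1.65 to 0.42 over the arrays with a mean of -0.15 (SE 0.132, adjusted p = 0.396); the lowest value was replicate 1 of miR-565, without which the mean was -0.04 (adjusted p = 0.752). Over the 5 miRNAs, ZEB2 (0.16, adjusted p = 0.0144) and TWIST1 (0.10, adjusted p = 0.0300) were higher and SNAI1 did not pass.

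In the TGF-beta group, 1 of 8 genes passed the test with its brightest probe, in miR-181d, where 3.68% of all genes were higher. TGFB2, encoding a secreted ligand, had signals of 3421, 2685 and 3469 in cells overexpressing miR-181d and 2167, 1765 and 2463 in cells in which it was knocked down. The groups did not overlap, and the log2 ratio was 0.59 (SE 0.151, n = 3, adjusted p = 0.0377, limma), a 1.5-fold higher level. TGFB2 passed there in 16 of 28 alternatives, and not with any 1 array of miR-181d left out. In the other miRNAs, its ratio was between 0.27 and 0.60 without passing the test, and it was above 0 on all 15 arrays, from 0.11 to 1.27. This held for the brightest probe only: the second TGFB2 probe had a mean of 0.05 (adjusted p = 0.402) and was below 0 on 5 arrays. TGFB1, the ligand most used to induce the transition, had a mean of 0.01 (SE 0.060, adjusted p = 0.923), and its largest value, 0.75, was replicate 1 of miR-565. The receptors TGFBR1 (0.19, adjusted p = 0.0639) and TGFBR2 (0.05, adjusted p = 0.202) did not pass over the 5 miRNAs, but did without replicate 1 of miR-565 (0.23, adjusted p = 0.0157, and 0.07, adjusted p = 0.0169). Among the signal transducers, SMAD3 had a mean of -0.02 (adjusted p = 0.497) with its brightest probe, whereas its second probe, at 0.26 (adjusted p = 1.03e-06), was higher on 15 of 15 arrays and passed the test in each of the 5 miRNAs (adjusted p = 0.00297 to 0.0109). The dimmest SMAD2 probe was higher in miR-629*, at 0.29 (adjusted p = 0.0296), whereas the brightest was at 0.10 (adjusted p = 0.293). SMAD7, the inhibitory SMAD, had a mean of -0.06 (adjusted p = 0.160). Without replicate 1 of miR-565, both SMAD7 (-0.08, adjusted p = 0.00366) and the brightest SMAD3 probe (-0.04, adjusted p = 0.0302) were lower.

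Of the 10 matrix genes tested, 4 passed the test: COL4A1 in miR-181d and COL4A2 in miR-574-3p were higher (3.68% and 2.82% of all genes), and in miR-565 SPARC was higher and TGFBI lower (9.69% and 4.64%). SPARC had the highest ratio of all 43 genes. SPARC, encoding a collagen-binding matrix protein, had signals of 36.7, 20.2 and 18.03 in cells overexpressing miR-565 and 14.1, 12.9 and 10.4 in knocked-down cells. These did not overlap, and the log2 ratio was 0.94 (SE 0.155, n = 3, adjusted p = 0.00461, limma), a 1.92-fold higher level. The signal is dim, and the knocked-down channel was well above background on 2 of the 3 arrays. Without replicate 1 of miR-565, the ratio was 0.72 (SE 0.157, adjusted p = 0.00836). COL4A1 and COL4A2 encode the paired chains of basement membrane collagen and are neighbours on chromosome 13. COL4A1 was at 0.28 in miR-181d (SE 0.067, adjusted p = 0.0279) and COL4A2 at 0.28 in miR-574-3p (SE 0.048, adjusted p = 0.00461). The COL4A2 ratio in miR-181d was 0.04 and the COL4A1 ratio in miR-574-3p was -0.02; the difference between the 2 genes was not tested. Without replicate 1 of miR-565, both were higher in miR-629* (adjusted p = 0.0182 and 0.0390) and in miR-766 (adjusted p = 0.0173 and 0.0449). A second, dim COL4A1 probe had a mean over the 5 miRNAs of -0.01 (adjusted p = 0.872). In miR-181d, COL4A1 did not pass with any 1 array of that miRNA left out. In miR-574-3p, COL4A2 did not pass without replicate 2 or without replicate 3 of that miRNA, nor with the error-weighted mean.

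TGFBI, a matrix protein named for its induction by TGF-beta, was lower in miR-565 at -0.19 (SE 0.052, adjusted p = 0.0363, limma), with replicates at -0.28, -0.14 and -0.14. Without replicate 1 it was -0.14 and no longer passed (adjusted p = 0.126). Connective tissue growth factor (CTGF, now CCN2), a target of TGF-beta, passed for no single miRNA but was above 0 on 14 of 15 arrays, with a mean of 0.23 (SE 0.046, adjusted p = 0.00194). Its relative CYR61 (now CCN1) had a mean of -0.02 (adjusted p = 0.685), and THBS1, encoding thrombospondin, had a mean of -0.04 (adjusted p = 0.274), or -0.07 without replicate 1 of miR-565, which passed (adjusted p = 0.0137). MMP14, a membrane-bound matrix protease, was dim: in miR-766, its signals were 6.72, 21.9 and 12.8 in overexpressing and 39.3, 47.9 and 33.9 in knocked-down cells. The log2 ratio there was -1.69 (SE 0.418, adjusted p = 0.0556), the lowest of any member, and just missed the threshold. Leaving out replicate 1 of miR-565, it passed (adjusted p = 0.0112).

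**Figure D3:**
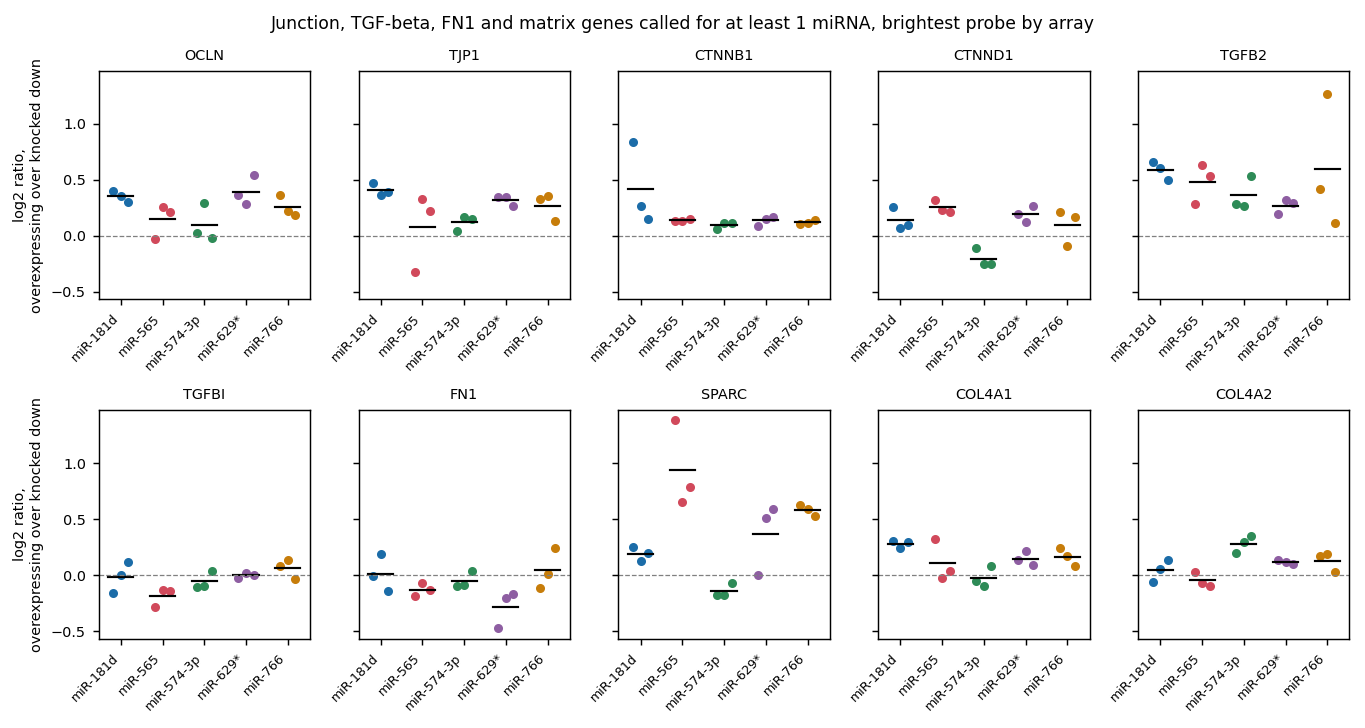
Log2 ratio of overexpressing over knocked-down cells for the brightest probe of the 10 genes other than keratins that passed the test in at least 1 miRNA, with 1 point for each array and a line at the mean of the 3 arrays of a miRNA. The 3 arrays of miR-565 are highest for SPARC, and 1 array of miR-181d stands above the others for CTNNB1.

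Integrins join the cell to the matrix, and with the brightest probe none of the 3 tested passed. ITGB1, the most shared beta subunit, had a ratio of -2.02 with its brightest probe on replicate 1 of miR-565, against -0.12 to 0.32 on the other 14 arrays. Its signals in miR-565 were 44890, 90927 and 85539 in overexpressing and 181665, 87921 and 87031 in knocked-down cells, so on that array the ITGB1 signal was low in the overexpressing channel and high in the knocked-down channel. These signals are not normalized between arrays. KRT8 was high in both channels of that array. It was at 91336 in the overexpressing and 103992 in the knocked-down channel, beside medians of 57543 and 70598 over all arrays. All 4 ITGB1 probes shared the low ratio, at -2.02, -1.97, -1.87 and -1.59. The probes disagreed over the 5 miRNAs, with means of -0.06 (adjusted p = 0.726), -0.27 (adjusted p = 0.0415), -0.38 (adjusted p = 0.00757) and -0.09 (adjusted p = 0.460) from the brightest to the dimmest. The array annotation places the probe at -0.38 on chromosome 8, apart from the others on chromosome 10. ITGAV, the alpha subunit of vitronectin receptors, was at -0.97 on the same array and between 0.09 and 0.32 on the others. Without that array, the brightest probe of ITGAV was higher in each of the 5 miRNAs, from 0.15 to 0.24 (adjusted p = 0.000170 to 0.00477, limma), and that of ITGB1 passed only in miR-181d, at 0.18 (adjusted p = 0.0323). With all arrays kept, a second, dim ITGAV probe had a mean of 0.07 over the 5 miRNAs (adjusted p = 0.654) and was below 0 on 5 arrays. The other ITGB1 probes were at -0.0014, -0.15 and 0.25 in miR-181d, the last being the dimmest.

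**Figure D4:**
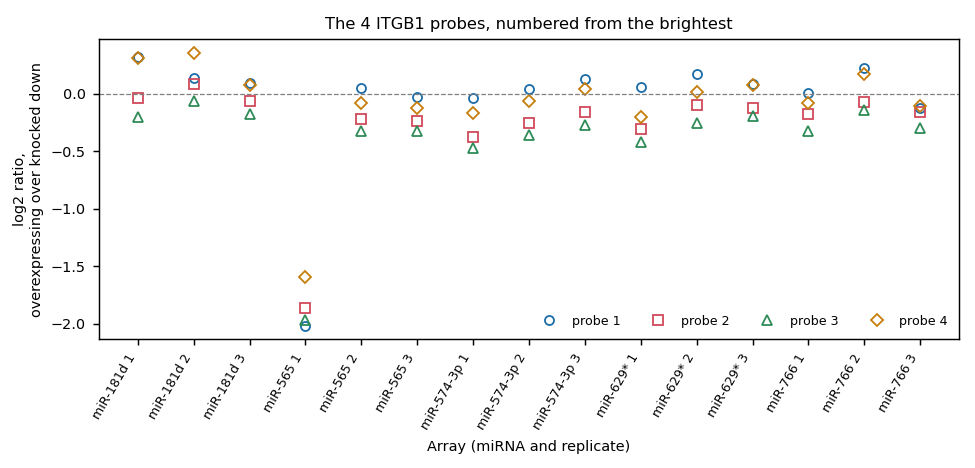
Log2 ratio of overexpressing over knocked-down cells for the 4 ITGB1 probes (symbols, numbered from the brightest) on each of the 15 arrays. On replicate 1 of miR-565 the probes lie between -2.02 and -1.59, and on the other arrays between -0.47 and 0.36.

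For the mean over the 5 miRNAs, 5 of the 43 genes had a lower mean ratio (KRT7, KRT8, CDH1, KRT19 and MMP14) and 13 a higher one. Among all genes, 18.5% were lower and 23.1% higher in this comparison, in which dye and treatment cannot be told apart. For 19 genes with more than 1 tested probe, all probes had the same sign of the mean ratio for 10.

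Whether the ratio differed among the miRNAs was asked with an F test over the 5 of them. It called 0 of the 43 genes and 0.539% of all genes (limma, adjusted p under 0.05); 5 of the 43 had an unadjusted p under 0.05, beside 7.92% of all genes, and SPARC had the smallest adjusted p, 0.229. Differences of each miRNA from the mean of the other 4 called 1 gene, CTNND1, whose ratio in miR-574-3p was lower than elsewhere by -0.38 (SE 0.080, adjusted p = 0.0384). On the 3 arrays of miR-574-3p it was -0.11, -0.25 and -0.25, below all values of the other 12. The 4 CTNND1 probes disagreed: from the brightest to the dimmest, their ratios in miR-574-3p were -0.20, 0.07, 0.23 and -0.11, and with the mean of the 4 probes the difference was -0.01 (adjusted p = 0.993). Among all genes, such differences called 0% in miR-181d, 0.113% in miR-565, 1.23% in miR-574-3p, 0.0478% in miR-629* and 0.00869% in miR-766. In miR-574-3p, COL4A2 (0.22, adjusted p = 0.0763) and SNAI2 (-0.61, adjusted p = 0.0863) came next.

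The channels were also compared apart, after quantile normalization within each dye. In the knocked-down channel 12 of the 43 genes differed among the miRNAs by the F test, beside 13% of all genes, whereas in the overexpressing channel 0 did, beside 0.0912% of all genes (limma, adjusted p under 0.05), and 0 had an unadjusted p under 0.05 (4.36% of all genes). Without replicate 1 of miR-565 the counts were 6 and 0, with the slide as a random block 31 and 6, and with both 29 and 21, so the gap between the channels depended on the slide setting. The share of all genes under these settings is not given, so these counts describe the setting and not these genes. Over the 15 arrays, the within-slide correlation was -0.23 in the knocked-down and 0.73 in the overexpressing channel. A negative correlation narrows the errors of means by construction. Cells in which miR-574-3p was knocked down stood out for 8 genes (8.54% of all genes), of which 4 are described. SNAI2 had log2 signals of 6.41, 6.46 and 6.47 in them, against 5.47 to 5.96 on the other 12 arrays, a difference of 0.72 (SE 0.083, adjusted p = 2.2e-05). In the overexpressing channel, the same difference was 0.11 (SE 0.116, adjusted p = 0.987). CTNND1 was also higher there, by 0.36 (SE 0.056, adjusted p = 0.000401), and TGFBR2 by 0.22 (SE 0.043, adjusted p = 0.00279). Both rested on the brightest probe: when all probes of a gene were averaged, the F test in this channel was not passed by CTNND1 (adjusted p = 0.118), TGFBR2 (adjusted p = 0.451) or TJP1 (adjusted p = 0.369). TGFBR2 also did not pass it with any 1 array of miR-574-3p left out (adjusted p = 0.0571 to 0.0750). COL4A2 went the other way, with log2 signals of 13.83, 13.81 and 13.75, below all other arrays, a difference of -0.29 (SE 0.043, adjusted p = 0.000276). In cells in which miR-766 was knocked down, 4 genes stood out (4.25% of all genes). MMP14 was higher by 1.66 (SE 0.248, adjusted p = 0.00196), and COL1A1, a fibrillar collagen that was dim here, differed by -0.35 (SE 0.074, adjusted p = 0.0157). These arrays fill slide 4, so slide and miRNA cannot be told apart for them. Within slides that held more than 1 miRNA, the SNAI2 ratio of miR-574-3p was -0.46, beside -0.04 for miR-565, on slide 2 and -0.55, beside 0.19 for miR-629*, on slide 3.

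**Figure D5:**
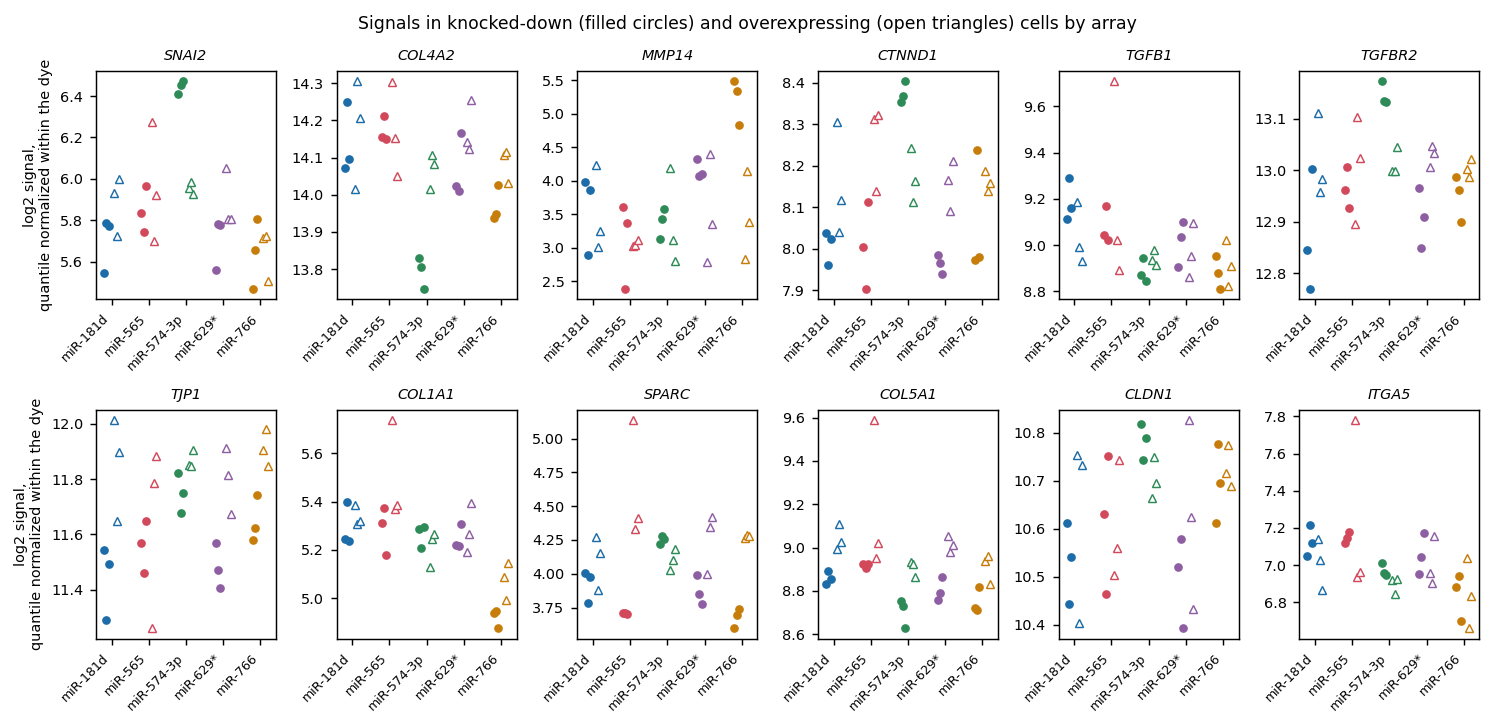
Log2 signal, quantile normalized within the dye, in knocked-down (filled circles) and overexpressing (open triangles) cells on each array for the 12 genes whose knocked-down channel differed among the miRNAs, with a separate scale for each gene. For SNAI2, CTNND1 and TGFBR2, the 3 circles of miR-574-3p lie above those of the other miRNAs, and for COL4A2 below them.

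Since replicate 1 of miR-565 widened the shared estimate of the spread, the counts were also taken without it. In miR-181d, 2 genes were then lower and 12 higher (11.9% and 16.2% of all genes), and in miR-565 2 were lower and 4 higher (6.73% and 9.57%). For miR-574-3p 9 were lower and 5 higher (11% and 12.1%), for miR-629* 5 were lower and 12 higher (15.1% and 20.9%), and for miR-766 3 were lower and 9 higher (7.72% and 11.8%). The mean over the 5 miRNAs gave 8 lower and 17 higher (26.1% and 31.8%). MMP14 was then no longer among the lower genes (-0.43, adjusted p = 0.0657). KRT7 and KRT8 were lower in all 5 miRNAs here too, with KRT7 between -0.62 and -0.33. SNAI2 (-0.49, adjusted p = 0.00931, limma), CDH1 (-0.18, adjusted p = 0.0491) and CTNND1 (-0.20, adjusted p = 0.0296) were then lower in miR-574-3p. COL4A1 and COL4A2 were the 2 genes whose ratio differed among the miRNAs by the F test (3.62% of all genes), with adjusted p of 0.0463 and 0.0376.

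Related genes outside the 46 were counted from 3 lists. Of 24 other epithelial junction and keratin genes tested, KRT81 was lower in miR-181d, miR-565, miR-574-3p and miR-629*, from -0.29 to -0.19; in all, 3 of these genes were lower in miR-181d and in miR-565, 2 in miR-629*, 1 in miR-574-3p and 0 in miR-766, beside 2.68%, 4.64%, 4.51%, 2.65% and 0.743% of all genes in these miRNAs, and 1 was higher, in miR-565 (9.69%). Of 29 other TGF-beta pathway genes, at most 2 passed in either direction in any miRNA, where between 0.743% and 9.69% of all genes did. ACVR1, encoding an activin receptor, was higher in miR-565 and miR-629*, and BMP4, a ligand of the same superfamily, was lower in miR-181d and miR-629*. Of 35 other matrix and integrin genes, LAMA5, a laminin chain, was lower in miR-181d and miR-629*, where 2.68% and 4.51% of all genes were lower. The only others that passed in a miRNA were higher. They were LAMC1 and COL5A2 in miR-181d and COL18A1 in miR-574-3p, where 3.68% and 2.82% of all genes were higher. None of these related genes differed among the miRNAs by the F test.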

How the data were processed

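Data were 15 dual-color arrays of A549 cells, grouped by their labels. The deposited intensity values were made by the authors with Feature Extraction 9.5.3, which subtracted background, detrended and normalized the dyes by LOWESS within each array; the deposited log10 ratio in the authors' series table, on the log10 scale, equals the log10 ratio in the array files. The log2 ratio (Cy5 over Cy3) of the processed signals was computed here. Outlier-flagged spots (2296 over all arrays) were left out. The 31356 probes that 3 or more arrays showed well above background, in whichever channel, were tested in 1 limma 3.58.1 fit (R 4.3.3) with an intensity trend, and the brightest probe stood for its gene. Genes named are those called in a miRNA or by the F test among miRNAs, plus representatives of each role. The members and lists were chosen with earlier results of these data known. The labels do not say whether replicates are separate cultures, so p-values measure the spread between arrays only, and 3 arrays for each miRNA limit the precision. Replicate numbers were not used to pair arrays of different miRNAs in the main fit. Of 30 same-numbered pairs, 13 deviated together with a correlation over 0.1, and correlations ran from -0.39 to 0.51. The highest was between replicate 1 of miR-574-3p and replicate 1 of miR-629*. Differently numbered pairs are not given, so whether arrays of the same number share a batch was not tested. On simulated data for the miR-181d comparison (31356 probes), 7, 23, 37 and 47 of 50 probes changed by 0.3, 0.6, 1 and 2 on the log2 scale were recovered. Alternatives were normexp (offset 50), median centering, the authors' series table, other filters, blocks and weights, and each array left out. The deposited error score of each log10 ratio, made by the authors' software, weighted 1 alternative. The Rosetta Resolver analysis was not used here. Array coordinates are NCBI36. One marker gene is not reported here.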

Additional observations from a re-analysis of the deposited data

Results flagged for a closer look

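The ratio of CTNND1 in miR-574-3p differed from the mean of the other 4 miRNAs by -0.38 on the log2 scale (SE 0.080, adjusted p = 0.0384, limma). A test of the difference itself was passed here, for the brightest of 4 probes. The difference kept its sign under 26 alternatives and passed the test under 11 of them; with normexp it was -0.27 (adjusted p = 0.0771), and with the mean of the 4 probes -0.01 (adjusted p = 0.993).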

How the results depend on the processing

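The counts below are given without the share of all genes under the same setting. They therefore show how the calls depended on the processing, and not whether these genes differed from the rest. Each array left out in turn gave 1 to 14 genes in miR-181d, 3 to 11 in miR-565, 0 to 14 in miR-574-3p, 2 to 17 in miR-629*, 0 to 12 in miR-766, 15 to 25 for the mean over the 5 miRNAs, 0 to 2 for the F test among miRNAs and 5 to 9 for the knocked-down channel. The upper ends of miR-181d, miR-574-3p, miR-629*, miR-766 and the mean came without replicate 1 of miR-565, that of miR-565 without its replicate 2. Leaving out any array of miR-574-3p left 5 genes in the knocked-down channel and at most 1 in miR-574-3p, and leaving out any array of miR-181d left at most 2 there. With the slide as a random block, the count was 3 for miR-181d and 0 for the other miRNAs, 1 for the mean, 10 for the F test, 6 for the overexpressing and 31 for the knocked-down channel. The within-slide correlation was 0.73 for the ratios, 0.73 for the overexpressing channel and -0.23 for the knocked-down channel. With replicate 1 of miR-565 left out as well, a choice made after seeing the data, the correlation of ratios was -0.20 and the counts were 14 (miR-766), 26 (miR-629*), 17 (miR-574-3p), 13 (miR-565), 25 (miR-181d), 32 (mean), 20 (F test), 21 (overexpressing) and 29 (knocked-down). A negative correlation narrows the errors of means by construction, and this also applies to the 31 genes of the knocked-down channel. The replicate number as a block gave 7 genes in miR-181d, 6 in miR-565, 4 in miR-574-3p, 4 in miR-629* and 1 in miR-766, 18 for the mean, 0 for the F test and 9 for the knocked-down channel. The thresholds of the methods, with their mirror image for higher genes, gave 0 in each miRNA, and the mean of a gene's probes gave 1 in miR-766, 3 in miR-629*, 3 in miR-574-3p, 4 in miR-565 and 2 in miR-181d. With the 3 arrays of a miRNA alone, there were 4 in miR-766, 10 in miR-629*, 18 in miR-574-3p, 0 in miR-565 and 9 in miR-181d. Median centering gave 8 in miR-565, 3 in miR-629* and 4 in miR-766. Normexp gave 3 in miR-565 and 3 in miR-766, and 7 for the knocked-down channel. Without an intensity trend there were 3 in miR-629*, and the error-weighted mean gave 3 in miR-766. KRT7 in miR-181d passed under all 28 alternatives, from -0.73 to -0.58, and no called ratio in a single miRNA changed sign. The mean ratio of CTNND1 was -0.00075 with the mean of its probes, against 0.10. KRT18 in miR-574-3p passed in 10 of 28, TJP1 in miR-629* in 9 of 28. In miR-181d, TGFB2 passed in 16 of 28, COL4A1 in 22, OCLN in 23 and TJP1 in 24. In simulated data, 14% of probes changed by 0.3 on the log2 scale were recovered, so most differences of that size were missed there. The simulation had independent noise, no correlation within slides and few changed probes, so this share may not carry over to the data.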
